A study of Mus musculus with 18 samples.

Results

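Ankyrins, spectrins and the L1-family adhesion molecules were followed as 9 genes: *Ank1*, *Ank2* and *Ank3*, the spectrin genes *Sptan1* and *Sptbn1*, and *Nrcam*, *Nfasc*, *L1cam* and *Chl1*. They were picked out by symbol, with earlier results of these data known. The deposited abundance table lists *Sptan1* as *Spna2* and *Sptbn1* as *Spnb2*, and all 9 genes were among its 23038 symbols and passed the filter on low counts in every comparison. In the table of alternative splicing events, 21 of 1991 events belonged to 5 of the 9 genes: 7 to *Ank2*, 4 to *Ank3*, 4 to *Nrcam*, 4 to *Chl1* and 2 to *Sptan1*. *Ank1*, *Sptbn1*, *Nfasc* and *L1cam* had no listed event.

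Cortices were taken from CD1-background mice at embryonic day 18.5, and 4 groups held 3 mice each. These were *Nova2-/-* mice and their wild-type littermates (wild-type replicates 1 to 3), and *Nova1-/-* mice and theirs (wild-type replicates 4 to 6). The labels do not name littermates: wild-type replicates 4 to 6 were set against *Nova1-/-* because those numbers also appear among the mid- and hindbrain samples, which were taken from *Nova1* litters, and this pairing is inferred. The sets of wild-type mice are called litters below for short, and each set may hold more than 1 litter. In *Nova2-/-* mice a cassette with Cre stands before the start codon of the first known coding exon in the germline. Elsewhere the paper describes the cassette as meant to take the place of the first exon. The *Nova1-/-* allele is named in the labels without further detail. *Δ*I values were also given for midbrain and hindbrain (mid- and hindbrain) of *Nova1-/-* mice, whose gene counts were not analysed here.

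Ankyrins are adaptors that fasten membrane proteins to the spectrin skeleton, a lattice of *α* and *β* spectrin chains beneath the plasma membrane. The L1-family proteins are immunoglobulin-type adhesion molecules of growing axons, and most carry an ankyrin-binding site in their cytoplasmic tail. In neurons this system is known for assembling the axon initial segment and nodes of Ranvier and for the growth and bundling of axons. NOVA1 and NOVA2 are neuronal splicing regulators that bind YCAY, a tetramer in which Y is C or T (TCAT or TCAC and CCAT or CCAC).

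The targeted genes were followed first. *Nova1* had 3, 1 and 5 counts in the *Nova1-/-* mice and 1301 to 2011 in their wild-type littermates. *Nova2* did not fall to 0 in *Nova2-/-* cortex: it stood at 17.0, 17.9 and 21.6 CPM (counts scaled by TMM to a common library size), against 31.6, 31.6 and 40.8 CPM in wild-type littermates, a log2 fold change of -0.87 (SE 0.14, adjusted p = 0.0373 from edgeR). This call was kept in 1 of 6 fits that each left out a mouse, with log2 fold changes from -0.98 to -0.73. These are RNA counts, and by Western blot the paper found no NOVA2 protein in newborn *Nova2-/-* cortex. Library totals ran from 16518172 to 31362018 counts. The summed level of 8 neuronal markers, all detected in each cortex, was lower without overlap in *Nova2-/-* (4766 to 5176 CPM) than in wild-type replicates 1 to 3 (5553 to 6005 CPM), and stood at 5473 to 5641 CPM in the other 2 groups. None of the 8 was called by edgeR in *Nova2-/-*, 2 had an unadjusted p below 0.05, and their median log2 fold change was -0.17. Of all genes tested in *Nova2-/-* against wild-type littermates, 19.2% had an unadjusted p below 0.05 and 1.06% were called. The summed level of 13 meningeal markers, none at 0 in any library, was 281 to 590 CPM in wild-type replicates 1 to 3, 900 to 1091 CPM in *Nova2-/-*, 823 to 1016 CPM in wild-type replicates 4 to 6 and 718 to 830 CPM in *Nova1-/-*. Of these 13 markers, 4 were called higher in *Nova2-/-* and 4 were called higher in wild-type replicates 4 to 6 than in replicates 1 to 3. Between these sets of wild-type mice, 3.03% of all genes tested were called in either direction. Against wild-type replicates 1 to 3, the sum of 5 endothelial markers was higher without overlap in *Nova2-/-* (199 to 214 against 131 to 161 CPM, 1 called), and so was that of 5 microglial markers (53.4 to 63.2 against 43.3 to 49.1 CPM, 0 called and 1 at an unadjusted p below 0.05). No marker of these lists was at 0 in any library. Wild-type replicate 3 stood apart from replicates 1 and 2 in the meningeal sum, with 590 against 281 and 355 CPM. Leaving replicate 3 out raised the genes called in the *Nova2* litters from 166 to 1433.

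The first question was how splicing of these genes changed. *Δ*I is the authors' inclusion level in wild-type minus that in the knockout, on a scale from -1 to 1, with 1 pooled value per event and comparison. For cassette events, single or tandem, values above 0 therefore mean less inclusion in the knockout. For alternative 3′ splice sites and mutually exclusive exons, the sources used here do not give which form counts as inclusion. There the sign shows only that use of the forms shifted. The table lists only events that the authors called in *Nova2-/-* cortex at 0.1 or more in size, with YCAY motifs inside NOVA binding clusters, so a *Δ*I in *Nova2-/-* and the presence of motifs are properties of the selection and carry no test here. No read depth or replicate spread was available for *Δ*I. The paper lists *Ank2* among NOVA2 targets linked to agenesis of the corpus callosum. It shows replicated RT-PCR for genes of that list, and its text does not name the *Ank2* event.

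In *Nova2-/-* cortex the 21 events had a median *Δ*I of 0.477 in size, beside 0.223 over all 1991 events, and ranged from 0.115 to 0.838. Of the 21, 10 were at 0.5 or more in size, beside 8.54% of all events. Of the 21, 8 were above 0, beside 48.6% of all events, and the other 13 below. Several events describe the same stretch of a gene. The 21 fell on 11 spans between flanking exons, and 5 of the 10 large events shared a span of *Ank2* and 3 a span of *Nrcam*. With the event of largest size for each span, 4 of the 11 were at 0.5 or more, beside 10.9% of all spans, the median size was 0.335, beside 0.232, and 4 of the 11 were above 0. Among the 539 genes with an event, ranked by their largest *Δ*I in size, *Nrcam* was at 3, *Ank2* at 10, *Ank3* at 43, *Chl1* at 166 and *Sptan1* at 254. The genes were chosen with earlier results of these data known, so these counts and ranks carry no test.

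**Figure D1:**
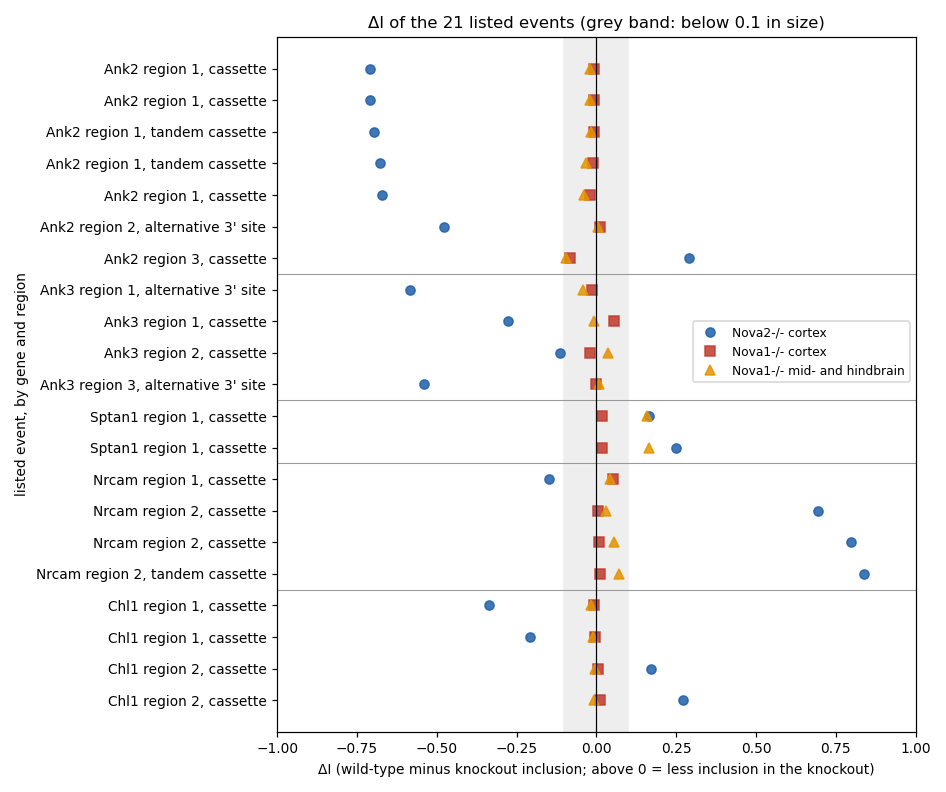
*Δ*I (x axis, wild-type minus knockout inclusion, no unit) of the 21 listed events (rows, grouped by gene, with regions numbered by increasing genome position), with a circle for *Nova2-/-* cortex, a square for *Nova1-/-* cortex and a triangle for *Nova1-/-* mid- and hindbrain. The circles spread from -0.710 in *Ank2* to 0.838 in *Nrcam*, all squares lie inside the grey band below 0.1 in size, and triangles leave it at the 2 *Sptan1* events.

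Among the ankyrins, *Ank2*, which encodes ankyrin-B of axons, had 5 events on the span chr3:126624525-126632804 (mm9, minus strand), with *Δ*I between -0.710 and -0.673 in *Nova2-/-* cortex. These *Δ*I values, all below 0, mean more inclusion without NOVA2. The same 5 events lay between -0.0188 and -0.00623 in *Nova1-/-* cortex, and in *Nova1-/-* mid- and hindbrain between -0.0394 and -0.0165. One of the 5 names its exon, 183 bases at chr3:126631583-126631765, with a *Δ*I of -0.673. It is exon 46 of 47 of Ank2-201 in GENCODE M1 and is coding in 3 of the 4 annotated transcripts that hold it. The exon and the nearest 100 bases of each flanking intron are shown because this is the exon with the most upstream motifs of the 7 that could be placed; capitals mark YCAY on the sense strand, here and in all sequences printed, which were read from the mm9 reference.
Ank2 183-base exon, upstream intron: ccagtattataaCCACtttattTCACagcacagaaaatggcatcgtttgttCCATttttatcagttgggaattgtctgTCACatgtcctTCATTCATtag
Ank2 183-base exon: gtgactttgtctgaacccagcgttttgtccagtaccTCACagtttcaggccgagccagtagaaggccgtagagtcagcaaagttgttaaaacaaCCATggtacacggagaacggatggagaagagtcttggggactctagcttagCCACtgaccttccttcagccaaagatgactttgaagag
Ank2 183-base exon, downstream intron: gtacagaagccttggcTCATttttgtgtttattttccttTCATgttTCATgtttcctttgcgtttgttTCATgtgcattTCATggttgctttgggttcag
In the 200 bases on either side (the printed flanks are the 100 nearest the exon) there were 10 YCAY matches upstream and 7 downstream, with overlapping matches counted separately, and the exon held 3. Of 177768 annotated internal exons, 99.3% had fewer matches in the 200 bases upstream and 93.9% had fewer in the 200 bases downstream. A window of this size holds at least 1 match in 95.5% of cases upstream and 94.4% downstream, with a median of 3 in each. Unlike the listed events, those internal exons were not selected by motifs. The 299 cassette exons placed from all listed events held a mean of 3.94 matches upstream and 4.33 downstream.

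Further 5′ in *Ank2*, an alternative 3′ splice site event spanned chr3:126679763-126682185, with a *Δ*I of -0.477 in *Nova2-/-* cortex, 0.0115 in *Nova1-/-* cortex and 0.00649 in *Nova1-/-* mid- and hindbrain. The annotation ends this span with exons of 103 and 88 bases, which differ by 15. The sources used here do not give which acceptor site counts as inclusion, so the sign of the alternative 3′ splice site events shows only that use of the acceptors shifted. A cassette event on chr3:126679763-126684862, which overlaps it, had 0.291 in *Nova2-/-* cortex, so less inclusion in the knockout. This event had the largest *Nova1-/-* cortex value of the 21, -0.0821, and -0.0958 in *Nova1-/-* mid- and hindbrain.

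*Ank3* encodes ankyrin-G, which organizes the axon initial segment. Its 4 events all had *Δ*I below 0 in *Nova2-/-* cortex. The alternative 3′ splice site event on chr10:69390443-69395244 (mm9, plus strand) had -0.583 and the one on chr10:69462103-69465349 had -0.540. The annotated exons that end the second span measure 679 and 91 bases and differ by 588, a multiple of 3. A cassette event sharing the first span had -0.277. All 4 lay between -0.0190 and 0.0549 in *Nova1-/-* cortex.
The remaining *Ank3* event had a *Δ*I of -0.115 and included 33 bases at chr10:69416188-69416220, an exon absent from GENCODE M1 in all 6 coding transcripts that span it. It is shown because the annotation lacks it, and it held no YCAY itself, with 3 matches in the 200 bases upstream and 6 in the 200 bases downstream.
Ank3 33-base exon: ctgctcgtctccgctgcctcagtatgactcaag

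Of the spectrins, *Sptan1*, which encodes the *α* chain of non-erythroid spectrin, had 2 events on chr2:29855434-29857949 (mm9, plus strand). Both were less included in *Nova2-/-* cortex, with *Δ*I of 0.250 and 0.165. They stood at 0.0179 and 0.0163 in *Nova1-/-* cortex, and in *Nova1-/-* mid- and hindbrain at 0.164 and 0.157. These were the only 2 of the 21 events at 0.1 or more in *Nova1-/-* mid- and hindbrain, beside 15.9% of all events. The sign was the same in all 3 comparisons. The event of larger *Δ*I names a 60-base exon at chr2:29856620-29856679, exon 23 of 57 of Spna2-004, coding in both annotated transcripts that hold it. It had 7 YCAY matches in the 200 bases upstream, 0 in the exon and 6 downstream, and 93.0% of internal exons had fewer upstream. The exon and its upstream flank are shown because its *Δ*I was past 0.1 in *Nova2-/-* cortex and in *Nova1-/-* mid- and hindbrain, though not in *Nova1-/-* cortex.
Sptan1 60-base exon, upstream intron: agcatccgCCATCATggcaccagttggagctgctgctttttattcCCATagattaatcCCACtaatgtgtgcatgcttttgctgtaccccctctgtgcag
Sptan1 60-base exon: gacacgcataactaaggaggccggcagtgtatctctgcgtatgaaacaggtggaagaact

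In the L1 family, *Nrcam*, which encodes an adhesion molecule of axons and nodes, held the largest *Δ*I of the 9 genes. Its 3 events on chr12:45645712-45648330 (mm9, plus strand) had 0.838, 0.798 and 0.694 in *Nova2-/-* cortex, so the alternative sequence was included less without NOVA2. The same events lay between 0.00469 and 0.0114 in *Nova1-/-* cortex and between 0.0309 and 0.0718 in *Nova1-/-* mid- and hindbrain. The exon named by the event at 0.694 has 57 bases, at chr12:45646366-45646422. It is exon 9 of 32 of Nrcam-204 and coding in 3 of the 4 annotated transcripts that hold it. Its motifs were arranged differently from those of the *Ank2* exon: 1 match in the 200 bases upstream, 0 in the exon and 8 downstream. Of annotated internal exons, 97.1% had fewer matches downstream and 4.48% had fewer upstream. Exon and flanks are shown for comparison with *Ank2*.
Nrcam 57-base exon, upstream intron: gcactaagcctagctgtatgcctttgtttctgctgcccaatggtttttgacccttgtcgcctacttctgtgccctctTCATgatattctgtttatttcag
Nrcam 57-base exon: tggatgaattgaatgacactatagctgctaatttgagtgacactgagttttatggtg
Nrcam 57-base exon, downstream intron: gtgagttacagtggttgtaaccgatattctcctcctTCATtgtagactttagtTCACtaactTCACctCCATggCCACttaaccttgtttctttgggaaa
Another *Nrcam* exon, 18 bases at chr12:45636044-45636061, moved the opposite way, with a *Δ*I of -0.148 in *Nova2-/-* cortex and 0.0530 in *Nova1-/-* cortex. It had 3 matches upstream, 1 in the exon and 2 downstream.
Nrcam 18-base exon: caaagctcctTCATgact

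*Chl1*, the close homolog of *L1cam*, also had regions that moved in opposite directions. On chr6:103615805-103618842 (mm9, plus strand), 2 cassette events had *Δ*I of -0.335 and -0.207 in *Nova2-/-* cortex, and on chr6:103661061-103665393 another 2 had 0.172 and 0.270. In *Nova1-/-* cortex the 4 values lay between -0.00781 and 0.0105, and in *Nova1-/-* mid- and hindbrain between -0.0168 and -0.00471. The exon of the first region has 48 bases, at chr6:103616914-103616961 (exon 8 of 30 of Chl1-203), and the exon of the second has 162 bases, at chr6:103664439-103664600 (exon 24 of 27 of Chl1-202). The 48-base exon, more included without NOVA2, had 5, 2 and 5 matches upstream, within and downstream. The 162-base exon, less included, had 2, 2 and 3. Both are shown as the pair of exons of 1 gene with opposite signs.
Chl1 48-base exon: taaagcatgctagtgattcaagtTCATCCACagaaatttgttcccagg
Chl1 162-base exon: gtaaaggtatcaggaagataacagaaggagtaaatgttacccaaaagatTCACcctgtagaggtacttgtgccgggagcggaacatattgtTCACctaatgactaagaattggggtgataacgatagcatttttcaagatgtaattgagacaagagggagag

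All 7 exons that could be placed from event names had a length that is a multiple of 3, beside 78.3% of the 299 cassette exons placed in the whole table. Of those 299 exons, the 157 less included in *Nova2-/-* cortex held a mean of 3.39 YCAY matches upstream and 5 downstream, and the 142 more included held 4.54 upstream and 3.60 downstream. Of the exons themselves, whose lengths differ, 69.2% held at least 1 match, beside 4 of the 7. A match is a description of these letters and not of binding.

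**Figure D2:**
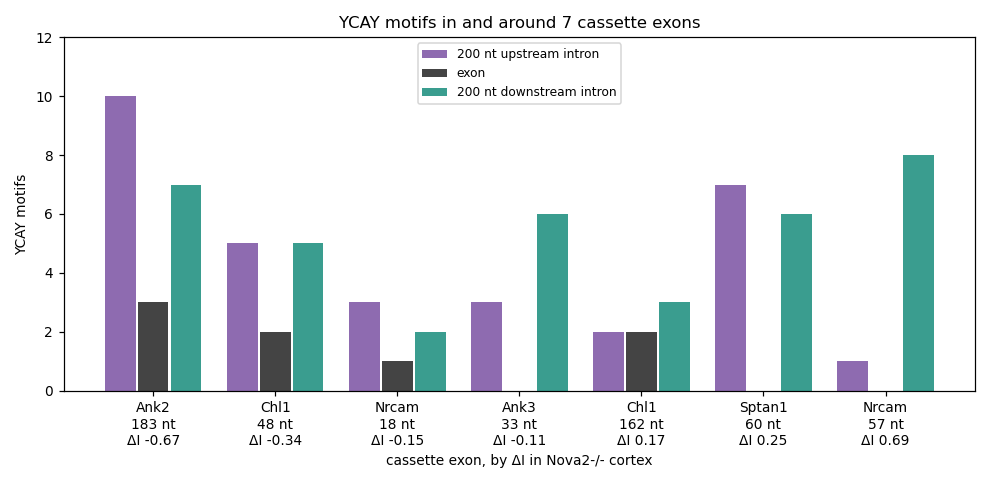
Number of YCAY matches (y axis) in the 200 bases of intron upstream, in the exon and in the 200 bases downstream (bars from left to right in each set) for the 7 placed cassette exons, ordered by *Δ*I in *Nova2-/-* cortex. The *Ank2* exon at the left has 10 upstream and the *Nrcam* exon at the right has 8 downstream.

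The values in *Nova1-/-* were not used to select the events. In *Nova1-/-* cortex, 0 of the 21 events reached 0.1 in size, beside 11.1% of all events, and the median was 0.0114, beside 0.0341. In *Nova1-/-* mid- and hindbrain the median was 0.0309, beside 0.0378. The table also holds the authors' FDR of each event in both *Nova1-/-* comparisons, which was not used, and these pooled values were not tested here.

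Abundance was examined next, beginning with the level of each gene. Levels were compared between genes only as CPM per kb, with the length of the longest coding transcript in GENCODE M1, and the order depends on that length. In wild-type replicates 1 to 3, *Sptan1* stood at 422 ± 28.8 CPM per kb (SD, n = 3), *Chl1* at 204 ± 6.81 and *Sptbn1*, the *β* chain partner, at 143 ± 13.5. These 3 did not overlap with each other or with the genes below them in any of the 4 groups. *Ank2* at 67.1 ± 5.06 and *Nrcam* at 66.0 ± 1.20 overlapped, followed by *L1cam* at 62.0 ± 2.57 and *Ank3* at 53.0 ± 5.54. *Nfasc*, a component of initial segments and nodes, stood at 15.4 ± 2.29 and *Ank1*, the ankyrin known from red blood cells, at 4.49 ± 0.698 CPM per kb (SD, n = 3). The order of the middle 4 genes differed between groups: in wild-type replicates 4 to 6, *Ank3* (81.5 ± 4.96) and *L1cam* (81.5 ± 7.24) lay above *Nrcam* (69.5 ± 0.656), and *Ank2* (87.5 ± 5.58) overlapped with *Ank3*.

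**Figure D3:**
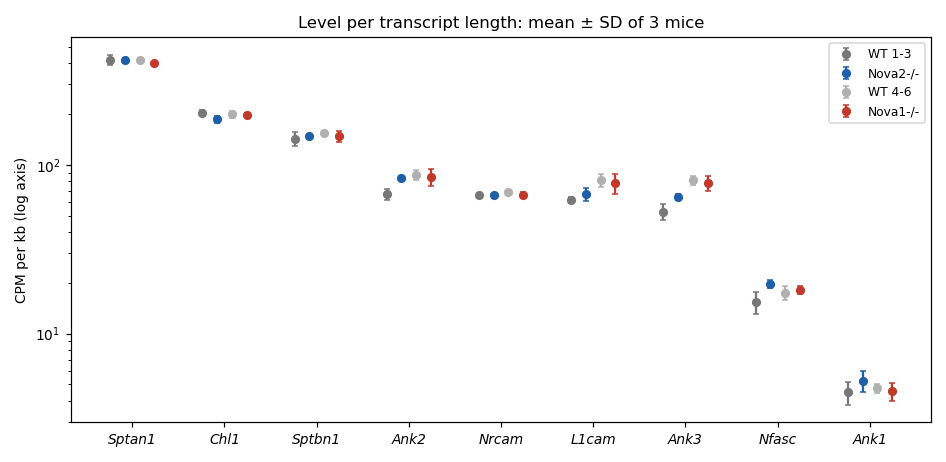
Level of each gene in CPM per kb of its longest coding transcript (y axis, log scale), as the mean ± SD of 3 mice in each of the 4 cortex groups, ordered by wild-type replicates 1 to 3. *Sptan1* is highest at 422 and *Ank1* lowest at 4.49 in that group, and *Ank2*, *Nrcam*, *L1cam* and *Ank3* lie close together.

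The comparison of *Nova2-/-* with wild-type littermates asked whether transcript abundance changed together with splicing. No member was called at an adjusted p below 0.05 by edgeR's quasi-likelihood test (0 of 9, beside 1.06% of the 15691 genes tested). An unadjusted p below 0.05 was found for 3 of the 9, beside 19.2% of all genes, and DESeq2 called 2, beside 5.30%. The median log2 fold change of the 9 was 0.13, beside 0.01 over all genes tested. In bulk tissue, fewer cells of a type and less RNA per cell cannot be told apart.

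*Ank2* had 920, 905 and 1037 CPM in wild-type replicates 1 to 3 and 1184, 1159 and 1216 CPM in *Nova2-/-*. All 3 knockouts lay above all 3 wild-type mice, with a log2 fold change of 0.33 (SE 0.08, adjusted p = 0.0884 from edgeR). *Ank3* had 458, 492 and 561 CPM in wild-type and 603, 594 and 647 CPM in *Nova2-/-*, likewise without overlap, with a log2 fold change of 0.30 (SE 0.09, adjusted p = 0.140 from edgeR). *Nfasc* was the third gene whose groups did not overlap, with 130, 147 and 175 CPM in wild-type and 186, 189 and 204 CPM in *Nova2-/-*, a log2 fold change of 0.37 (SE 0.11, adjusted p = 0.132 from edgeR). These 3 of 9 genes stood higher without overlap, beside 12.4% of all genes in that direction. In each of the 3, wild-type replicate 3 was the highest wild-type mouse, and without it all 3 were called: *Ank2* at 0.39, *Ank3* at 0.39 and *Nfasc* at 0.50 (log2 fold change, adjusted p = 0.00670, 0.0122 and 0.00694 from edgeR). Each was called in only 1 of 6 fits that each left out a mouse. In the others the adjusted p rose to as much as 0.308, 0.338 and 0.330 (edgeR). Wild-type replicate 3 also had the highest meningeal, endothelial and microglial marker sums of its group and the lowest neuronal one. Its microglial lead was small, at 49.1 against 48.0 and 43.3 CPM. In *Nova2-/-* the meningeal, endothelial and microglial sums were higher and the neuronal sum lower than in wild-type littermates, each without overlap, and their part in these differences was not tested. The sum of 7 astrocyte and radial glia markers was lowest in replicate 3 (1243 CPM, against 1580 and 1500 CPM in replicates 1 and 2). In *Nova2-/-* that sum stood at 1529 to 1595 CPM.

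*Ank1* had 35.2, 32.3 and 43.4 CPM in wild-type and 39.0, 40.3 and 50.4 CPM in *Nova2-/-*, overlapping groups, with a log2 fold change of 0.24 (SE 0.14, adjusted p = 0.413 from edgeR). The summed level of 11 red blood cell genes overlapped between these groups, at 226 to 631 CPM in wild-type and 421 to 732 CPM in *Nova2-/-*, with at most 1 of the 11 at 0 in a library. The remaining members overlapped between groups as well. *L1cam*, the founding member of its family, had 313, 339 and 330 CPM in wild-type and 334, 340 and 390 CPM in *Nova2-/-*, a log2 fold change of 0.13 (SE 0.08). *Chl1* had 1620, 1521 and 1601 CPM in wild-type and 1407, 1400 and 1528 CPM in *Nova2-/-*, a log2 fold change of -0.12 (SE 0.07).

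*Nrcam*, which held the largest *Δ*I, had 511, 497 and 494 CPM in wild-type and 494, 509 and 507 CPM in *Nova2-/-*, a log2 fold change of 0.02 (SE 0.06, adjusted p = 0.888 from edgeR). The groups overlapped nearly fully. *Sptan1* had 3620, 3367 and 3158 CPM in wild-type and 3418, 3371 and 3227 CPM in *Nova2-/-*, a log2 fold change of -0.01 (SE 0.08, adjusted p = 0.980 from edgeR), and its sign turned without filter, under upper quartile scaling and in 2 fits that left out a mouse. *Sptbn1* had 1258, 1211 and 1444 CPM in wild-type and 1374, 1361 and 1324 CPM in *Nova2-/-*, a log2 fold change of 0.06 (SE 0.08). In both spectrin genes the knockout values lay within the range of the wild-type mice.

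**Figure D4:**
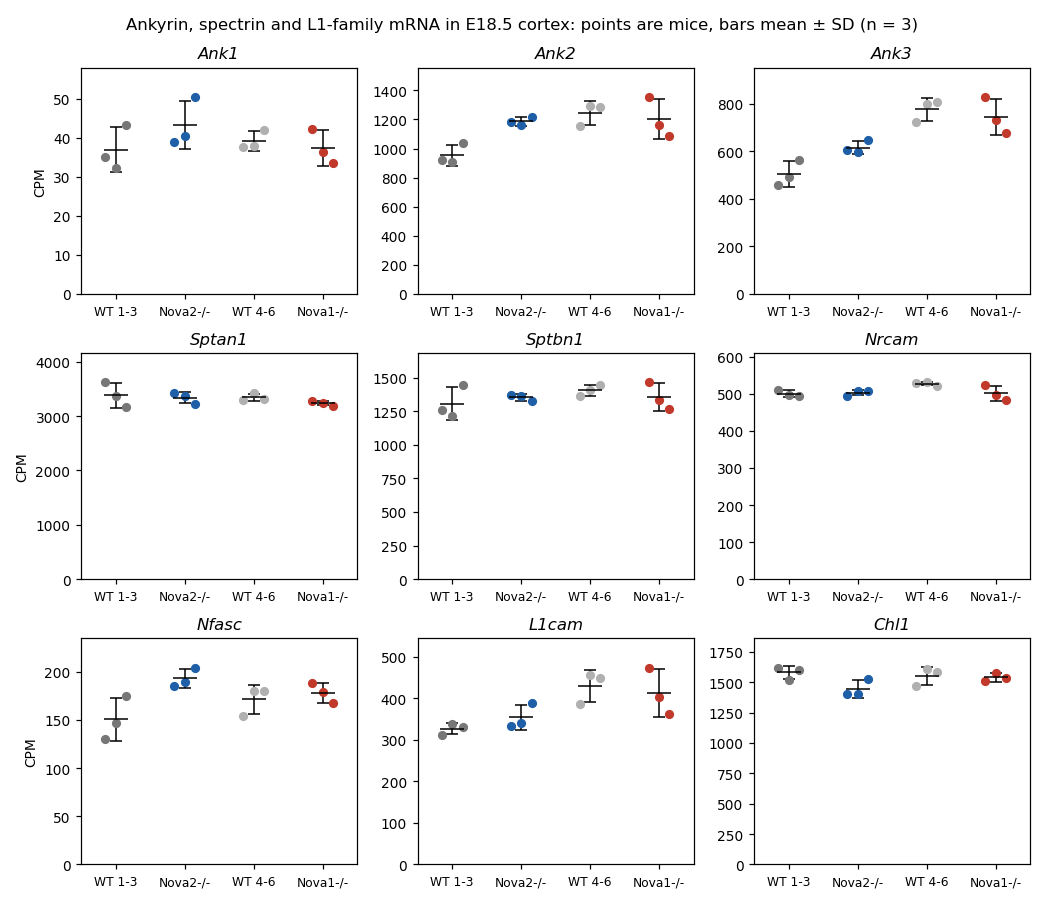
CPM (y axis, from 0) of the 9 genes in each of the 12 cortices (points), with the mean ± SD (n = 3) of each group; WT 1-3 are the wild-type littermates of *Nova2-/-* and WT 4-6 those of *Nova1-/-*. *Ank2*, *Ank3* and *Nfasc* lie higher in all 3 *Nova2-/-* mice than in WT 1-3, and *Ank3* and *L1cam* lie higher in WT 4-6 than in WT 1-3.

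In *Nova1-/-* cortex 0 of the 9 genes were called by edgeR's quasi-likelihood test (beside 0.0126% of the 15901 genes tested), 0 had an unadjusted p below 0.05 (beside 7.44%), and DESeq2 called 0 (beside 0.208%). Log2 fold changes lay between -0.07 and 0.06. *Ank2* had 1153, 1293 and 1287 CPM in wild-type replicates 4 to 6 and 1354, 1164 and 1085 CPM in *Nova1-/-*. *Ank3* had 721, 797 and 808 CPM in wild-type and 827, 730 and 678 CPM in *Nova1-/-*. In both genes *Nova1-/-* replicate 1 was the highest and replicate 3 the lowest of the 6 mice. *L1cam*, at 474, 404 and 361 CPM in *Nova1-/-* and 387, 457 and 448 CPM in wild-type, had its highest and lowest values in the same mice. *Nfasc* (188, 179 and 167 CPM in *Nova1-/-*, 153, 180 and 180 CPM in wild-type) and *Nrcam* (524, 496 and 484 CPM, against 530, 531 and 522 CPM) overlapped between groups. *Sptan1*, with 3278, 3245 and 3192 CPM in *Nova1-/-* and 3301, 3415 and 3321 CPM in wild-type, was the only one of the 9 whose groups did not overlap, beside 13.5% of all genes, and its log2 fold change was -0.05 (SE 0.04, adjusted p = 0.856 from edgeR).

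Wild-type replicates 4 to 6 were compared with replicates 1 to 3 to show how far these genes vary without a knockout. This comparison and that of *Nova2-/-* share wild-type replicates 1 to 3. Of the 9 genes, 3 were called higher in wild-type replicates 4 to 6 (beside 3.03% of the 15918 genes tested in either direction and 1.80% in this direction): *Ank3* with a log2 difference of 0.63 (SE 0.09, adjusted p = 0.0188), *L1cam* with 0.41 (SE 0.08, adjusted p = 0.0356) and *Ank2* with 0.39 (SE 0.08, adjusted p = 0.0436, all from edgeR). *Nrcam* joined these 3 in having no overlap between groups, beside 27.4% of all genes, at a log2 difference of 0.09 (SE 0.06, adjusted p = 0.444 from edgeR). *Nfasc* had 0.19 (SE 0.11) and *Sptbn1* 0.12 (SE 0.08), and the others lay between -0.01 and 0.09. Set side by side, *Ank2* differed from wild-type replicates 1 to 3 by 0.33 in *Nova2-/-* and by 0.39 in the other wild-type mice, *Ank3* by 0.30 and 0.63, *L1cam* by 0.13 and 0.41, and *Nfasc* by 0.37 and 0.19. With each of the 6 mice left out in turn, the log2 differences ran from 0.35 to 0.46 for *Ank2*, from 0.57 to 0.72 for *Ank3* and from 0.35 to 0.48 for *L1cam*. In 5 of these 6 fits, 0 or 1 of the 3 was called and calls over all genes fell from 483 to between 3 and 92. Without wild-type replicate 3, 3561 genes were called, 5 members among them, *Nfasc* and *Sptbn1* in addition. The sums of microglial markers (67.3 to 70.9 against 43.3 to 49.1 CPM, 1 of 5 called) and of 7 markers of the oligodendrocyte lineage (231 to 254 against 168 to 224 CPM, 1 called) were higher in wild-type replicates 4 to 6 without overlap, as was the meningeal sum. Litter, any other difference between the sets of mice and these marker levels cannot be told apart in this comparison.

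Whether the knockouts changed these genes by different amounts was then tested in a fit of all 12 cortices, as the log2 fold change in *Nova2-/-* minus that in *Nova1-/-*. No member was called by edgeR's quasi-likelihood test (0 of 9, beside 1.83% of the 16210 genes tested), 3 had an unadjusted p below 0.05 (beside 18.2%), and DESeq2 called 0 (beside 5.17%). Beside these, 7 of the 13 meningeal, 1 of the 5 endothelial and 1 of the 5 microglial markers were called higher, and the 8 neuronal markers had a median of -0.26 with 4 at an unadjusted p below 0.05. Their part in the difference was not tested. The largest differences were those of *Ank2* at 0.37 (SE 0.12, adjusted p = 0.124), *Ank3* at 0.34 (SE 0.12, adjusted p = 0.156) and *Nfasc* at 0.30 (SE 0.14, adjusted p = 0.266, all from edgeR). Without wild-type replicate 3 these 3 passed, at 0.44, 0.44 and 0.43 (adjusted p = 0.0318, 0.0301 and 0.0348 from edgeR). Each passed in only 1 of the 12 fits that each left out a mouse. With a log2 fold change of at least 1 required as well, 0 of the 9 genes passed in any of the 4 comparisons, beside 0.261% of all genes in *Nova2-/-*, 0.0126% in *Nova1-/-*, 0.647% between the wild-type litters and 0.697% for the difference.

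**Figure D5:**
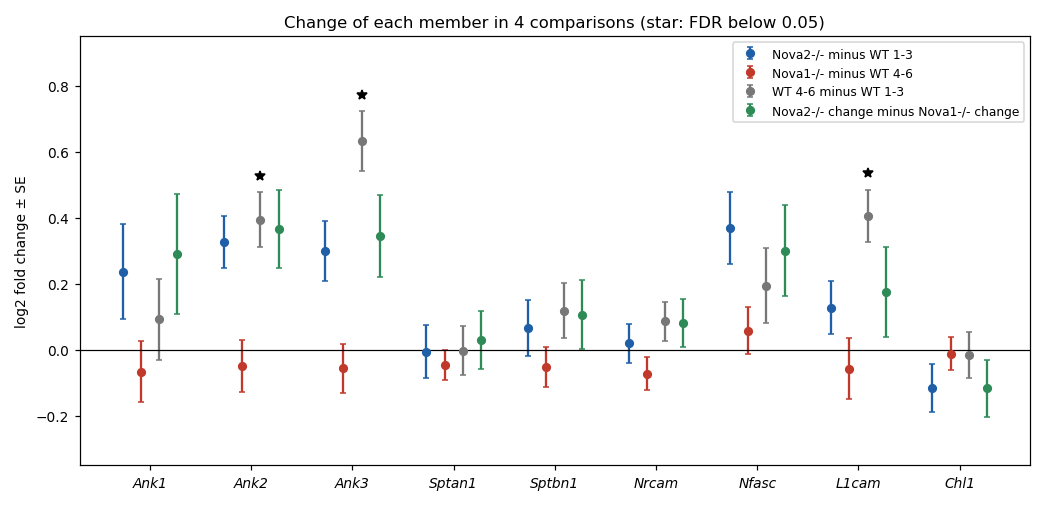
Log2 fold change ± SE (y axis) of the 9 genes (x axis) in *Nova2-/-* against wild-type replicates 1 to 3, *Nova1-/-* against wild-type replicates 4 to 6, the wild-type litters against each other, and the difference between the knockouts' changes. Stars mark an adjusted p below 0.05, which only *Ank2*, *Ank3* and *L1cam* reached, each between the wild-type litters.

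Over the 12 cortices, the genes whose centred log2 CPM lay nearest were *Sorl1* and *Wdfy3* for *Ank2*, at a root mean square distance of 0.0489 and 0.0490, *Csmd1* and *Grin2b* for *Ank3*, at 0.0479 and 0.0503, and *Ap2b1* and *Plcb1* for *Nrcam*, at 0.0281 and 0.0334, of 16210 genes.

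Other genes of the system were described from lists. Of 15 tested genes of the ankyrin-spectrin skeleton other than the members (other spectrins, adducins, protein 4.1 genes and tropomodulins), 0 were called in *Nova2-/-* or *Nova1-/-* by edgeR, 3 and 2 had an unadjusted p below 0.05 (beside 19.2% and 7.44% of all genes), and DESeq2 called 3 in *Nova2-/-* (beside 5.30%). Their median log2 fold changes were 0.01 and -0.06, beside 0.01 and 0.00 over all genes. *Epb4.1l2*, a protein 4.1 gene, had 34.8, 37.4 and 40.5 CPM in wild-type replicates 1 to 3, 54.4, 51.2 and 49.2 CPM in *Nova2-/-*, 48.5, 47.8 and 46.0 CPM in wild-type replicates 4 to 6, and 46.9, 45.5 and 45.1 CPM in *Nova1-/-*. Its *Nova2-/-* values all lay above those of the wild-type littermates, and the difference between the knockouts' changes was 0.51 (SE 0.10, adjusted p = 0.0252 from edgeR), a call kept in 5 of 12 fits that each left out a mouse, in which the difference ran from 0.46 to 0.58.
The list had 36 splicing events in 6 genes. The largest *Δ*I in *Nova2-/-* cortex was -0.691 in *Epb4.1l2*, in an event of mutually exclusive exons, and 0.680 in *Epb4.1*. It was 0.341 in *Epb4.1l3*, -0.193 in *Epb4.1l1*, 0.137 in *Add3* and 0.115 in *Add1*. Protein 4.1 proteins link spectrin and actin to the membrane, and adducins cap actin filaments at the spectrin lattice. In *Nova1-/-* cortex 5 of the 36 events were at 0.1 or more in size (13.9%, beside 11.1% of all events), all 5 among the 9 events of *Epb4.1l2*.

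Of 19 genes of the initial segment and node, *Cntnap1*, which encodes the paranodal protein Caspr, was called higher in *Nova2-/-* and 7 had an unadjusted p below 0.05, beside 19.2% of all genes. *Cntnap1* had 2.69, 2.95 and 2.85 CPM in wild-type replicates 1 to 3 and 5.42, 4.93 and 6.79 CPM in *Nova2-/-*, a log2 fold change of 1.03 (SE 0.19, adjusted p = 0.0487 from edgeR), a call kept in 1 of 6 fits that each left out a mouse, with log2 fold changes from 0.88 to 1.11, and lost with the replicate number as a block. Wild-type replicates 4 to 6 had 3.29, 3.84 and 4.74 CPM and *Nova1-/-* mice 4.94, 4.07 and 3.04 CPM, all above wild-type replicates 1 to 3. The median of the list was -0.05. *Scn3a*, a sodium channel *α* subunit gene, held the 3 splicing events of this list. The largest *Δ*I in *Nova2-/-* cortex was -0.272, in an event of mutually exclusive exons that had 0.0372 in *Nova1-/-* cortex.

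Of 14 genes of L1-family partners, *Dlg3*, a membrane-associated scaffold, was called lower in *Nova2-/-* and 4 had an unadjusted p below 0.05, beside 19.2% of all genes, with a list median of 0.15. It had 119, 119 and 115 CPM in wild-type replicates 1 to 3 and 77.0, 71.2 and 77.5 CPM in *Nova2-/-*, a log2 fold change of -0.63 (SE 0.07, adjusted p = 0.00977 from edgeR, kept in 3 of 6 fits that each left out a mouse). In *Nova1-/-* it had 121, 114 and 112 CPM, against 116, 112 and 129 CPM. The groups of *Nova2-/-* and wild-type mice lay far apart for this gene. *Ncam1*, the neural cell adhesion molecule, was called between the wild-type litters only, with 796, 863 and 991 CPM in replicates 1 to 3 and 1139, 1281 and 1278 CPM in replicates 4 to 6, a log2 difference of 0.49 (SE 0.10, adjusted p = 0.0365 from edgeR), kept in 1 of 6 fits that each left out a mouse. *Dlg3* held 9 of the 10 events of the list, the largest *Δ*I being -0.608 in an event of mutually exclusive exons. *Shtn1*, listed as 4930506M07Rik and known as shootin, held the other event, at -0.109. No gene of the 3 lists was called in *Nova1-/-* by edgeR.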

How the data were processed

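Total RNA from E18.5 cortex was depleted of ribosomal RNA and sequenced as paired-end libraries. The authors aligned reads to mm10 with OLego and deposited estimated counts (expected counts) per gene symbol, not normalized. The counting program was not given in the sources used here. They also deposited log2 fold changes for genes and FDR values (adjusted p-values) for genes and events from their own comparisons, which were not used. In the event table the authors deposited *Δ*I, an inclusion score difference pooled over mice, with coordinates lifted to mm9.

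The 9 genes, the gene lists and the tests were chosen with earlier results of these data known. Expected counts were rounded and fitted with edgeR 4.0.16 in R 4.3.3 (filterByExpr, TMM, quasi-likelihood test, Benjamini-Hochberg adjustment over all genes tested, threshold 0.05), with the 6 compared cortices in each fit and all 12 for the difference between knockouts. On simulated counts with 200 changed genes among 15691, the *Nova2* fit recovered 197 with 14 false calls. Recovery of differences as small as those of the 9 genes was not tested. CPM used TMM-scaled libraries. Totals were 16518172 to 31362018. Older symbols were matched through RefSeq synonyms. Exons were placed from event names with GENCODE M1 (309 of 941 cassette events) and sequences read from the mm9 genome with pysam. Starts of spans count from 0 in the file and from 1 here. *Δ*I was taken as wild-type minus knockout from exons whose direction the paper gives.

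Named genes were all 9 members, at most 3 called genes of each list per comparison by p, list genes with events, the events of largest *Δ*I on each region, and the 2 nearest genes of *Ank2*, *Ank3* and *Nrcam*. Alternatives were other filters and scalings, DESeq2 1.42.0, leaving out each mouse, all 12 samples in one fit, a replicate block, a log2 fold change of at least 1 and other event subsets. Replicates were separate mice. Gene counts of mid- and hindbrain were not analysed here.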

Additional observations from a re-analysis of the deposited data

Results flagged for a closer look

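Both results below were marked because the change in *Nova2-/-* cortex minus that in *Nova1-/-* cortex passed edgeR's quasi-likelihood test over all genes. For *Epb4.1l2* this difference was 0.51 on the log2 scale (SE 0.10, adjusted p = 0.0252 from edgeR), with all 3 *Nova2-/-* mice above their 3 wild-type littermates. For *Dlg3* it was -0.60 (SE 0.09, adjusted p = 0.00638 from edgeR), with all 3 *Nova2-/-* mice below theirs. In *Epb4.1l2*, wild-type replicates 4 to 6 (46.0 to 48.5 CPM) also lay above replicates 1 to 3 (34.8 to 40.5 CPM). Of 12 fits that each left out a mouse, 5 kept the *Epb4.1l2* call and 12 the *Dlg3* call. None of the 9 ankyrin, spectrin and L1-family genes was marked in this way by the same test. No test for an outlying sample was run on the groups of 3 mice.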

How the results depend on the processing

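Of the 477 values for the log2 fold changes of the 9 genes under alternatives, 431 kept their direction and side of the threshold, 14 lost and 12 gained a call, and 20 changed sign, all of them not called. *Sptan1* turned to 0.00103 without filter and 0.00330 with upper quartile scaling in *Nova2-/-*, and to 0.00383 without filter between the wild-type litters. With each mouse left out, *Sptan1* ran from -0.0487 to 0.0413 in *Nova2-/-*, from -0.0464 to 0.0450 between litters and from -0.00503 to 0.0857 in the difference between knockouts; *Nrcam* from -0.000867 to 0.0322 in *Nova2-/-*; *Chl1* from -0.0517 to 0.0263 between litters and from -0.0470 to 0.0171 in *Nova1-/-*. In *Nova1-/-*, *Ank1* ran from -0.164 to 0.00835, *Ank2* from -0.144 to 0.0201, *Ank3* from -0.138 to 0.00920, *Nfasc* from -0.0111 to 0.103 and *L1cam* from -0.167 to 0.0325. The cause was not tested.

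Members called in *Nova2-/-* numbered 0, but 2 with DESeq2, 2 with all 12 samples in one fit and 0 to 3 with each mouse left out. Between wild-type litters 3 were called, 0 with a log2 fold change of at least 1 and 0 to 5 with each mouse left out, and for the difference 0, or 0 to 3 with each mouse left out. Over all genes, 166 were called in *Nova2-/-* (832 with DESeq2, 1334 with all 12 samples, 41 with a log2 fold change of at least 1, 7 to 1433 with each mouse left out), 2 in *Nova1-/-* (33 with DESeq2, 1 with at least 10 counts in every sample, 1 to 10 with each mouse left out), 483 between litters (1325, 103 with that fold change, 3 to 3561) and 296 for the difference (838, 113, 113 to 1005). The highest of these came without wild-type replicate 3, except in *Nova1-/-*, where it came without *Nova1-/-* replicate 1.

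For the skeleton list, calls in *Nova2-/-* moved from 0 to 3 with DESeq2, 2 with all 12 samples and 0 to 2 with each mouse left out. Between litters they moved from 0 to 4 with DESeq2 and 0 to 7, and for the difference from 1 to 2 with DESeq2, 0 at the fold limit and 0 to 1. For the initial segment and node list the single call in *Nova2-/-* became 3 with DESeq2 and with all 12 samples, 0 with the replicate block and 0 to 4 with each mouse left out. Between litters 0 became 2 with DESeq2 and 0 to 5, and for the difference 0 became 2 with DESeq2 and 0 to 1. For L1-family partners the call in *Nova2-/-* became 2 with DESeq2 and all 12 samples, 0 at the fold limit and 0 to 3. The call between litters became 2 without filter, 3 with DESeq2, 0 at the fold limit and 0 to 7, and that for the difference 0 at the fold limit and 1 to 2. The 21 events became 11 with 1 for each span and 5 with 1 for each gene, those above 0 in *Nova2-/-* fell from 8 to 4 and 2, and those past 0.1 in *Nova1-/-* mid- and hindbrain from 2 to 1 and 1, as fewer events enter. With the limit on the mid- and hindbrain value itself raised to 0.2, 0 of the 21 passed.

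Same-numbered mice of the *Nova2* litters had correlations of 0.113, 0.00577 and 0.168 between their deviations. Replicates 1 and 3 of *Nova2-/-* correlated best with the wild-type mouse of the same number, and replicate 2 with wild-type replicate 1 (0.120). The numbers were not taken as pairs. With the replicate block, 220 genes and 0 members were called. The lowest adjusted p of members were then 0.0540 for *Ank2*, 0.0571 for *Nfasc* and 0.0695 for *Ank3* (edgeR). Few mice, single *Δ*I values without depth and unknown counting of isoforms limit these results.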
